A study of Mus musculus with 2 samples.

Results

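The 8 genes described here handle iron in the mouse intestine at embryonic day 15.5 (E15.5). Fth1 and Ftl1 encode the heavy and light chains of ferritin, the cell's iron store. Tfrc, Slc11a2 and Cybrd1 serve uptake, Heph serves export, and Aco1 and Ireb2 encode the iron regulatory proteins IRP1 and IRP2. They were taken by name from a list of iron genes, and all 8 were found among 43346 Ensembl genes, of which 21474 are annotated as protein-coding. The 8 genes have 31 transcripts in the deposited transcript tables.

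The data are total RNA-seq of whole intestine from strain B6NCrl, in 2 libraries that form 1 group. Replicate 1 came from 78 pooled E15.5 embryos and replicate 2 from 62, males and females together, and 10 ng of RNA entered each library. No genotype, treatment or second age was analysed here, so levels were compared between genes and between the libraries, and no test was possible. The libraries hold 34406872 and 40669822 estimated counts, and their gene counts differed by more than counting error (chi-square per degree of freedom 18.3 over 19707 genes), so they are not 1 library deposited again. Levels are given in TPM, a measure of transcript abundance corrected for transcript length, for replicate 1 and then replicate 2, as deposited, with the mean ± SD of n = 2.

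Iron reaches most cells bound to transferrin, which is taken in by the transferrin receptor. In the adult duodenum, enterocytes also reduce dietary iron with the ferrireductase CYBRD1 and import it with the transporter SLC11A2 (DMT1), and hephaestin (HEPH) oxidizes iron as ferroportin exports it across the basolateral membrane. Cells low in iron leave the iron regulatory proteins free to bind iron-responsive elements (IREs), short RNA hairpins with a CAGTGN loop and an unpaired C below the upper stem. Binding in a 5′ untranslated region (5′UTR) holds back translation, as in the ferritin mRNAs, and binding in the 3′UTR protects an mRNA from decay, as in that of the transferrin receptor.

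The hairpins are shown first because they divide the 8 genes by position in the mRNA and divide the transcripts of Slc11a2. A search of GENCODE M21 transcripts (GRCm38) looked for an unpaired C, 5 bases, the loop CAGTGN and 5 bases that pair back with Watson-Crick or G-T pairs, allowing 1 extra base on the 3′ side, with at least 3 of 4 pairs in the stem below. Only the transcript strand was searched. Each site below is 30 bases long, 5′ to 3′, with the loop in capitals.
Fth1, 5′UTR, chr19:9982732-9982761, + strand: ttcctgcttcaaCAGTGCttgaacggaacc
Ftl1, 5′UTR, chr7:45459778-45459807, − strand: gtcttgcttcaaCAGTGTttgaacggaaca
Tfrc site 1, 3′UTR, chr16:32631219-32631248, + strand: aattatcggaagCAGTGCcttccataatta
Tfrc site 2, 3′UTR, chr16:32631598-32631627, + strand: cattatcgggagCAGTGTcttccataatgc
Tfrc site 3, 3′UTR, chr16:32631663-32631692, + strand: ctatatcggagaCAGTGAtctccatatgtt
Tfrc site 4, 3′UTR, chr16:32631710-32631739, + strand: aattatcgggaaCAGTGTttcccataattt
Slc11a2, 3′UTR of transcript Slc11a2-205, chr15:100395152-100395181, − strand: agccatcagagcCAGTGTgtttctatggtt

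The search matched 4 of the 8 genes, beside 0.456% of all 55450 genes and 0.943% of the 21951 protein-coding genes in the annotation. Of 141767 transcripts, 0.316% matched. All 4 were already listed as known IRE genes, and the rule describes that known element. Their matches therefore locate the sites and are no sign of enrichment. The ferritin hairpins begin 87 bases (Fth1-201) and 78 bases (Ftl1-201) from the 5′ end, and 26 of their 30 bases are identical. The 4 Tfrc matches begin at bases 3315, 3694, 3759 and 3806 of Tfrc-201, all in a 3′UTR of 2461 bases. Any pair of them shares 18 to 25 of 30 bases. The rule requires the CAGTGN loop, so an element with another loop would be missed, and 4 need not be all. A ferritin site and a Tfrc site share 9 to 13 bases. The Slc11a2 site begins at base 1797 of Slc11a2-205 and was the only member site that used the extra base. No match was found in Cybrd1, Heph, Ireb2 or Aco1, which says only that these letters are not in their annotated transcripts.

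**Figure D1:**
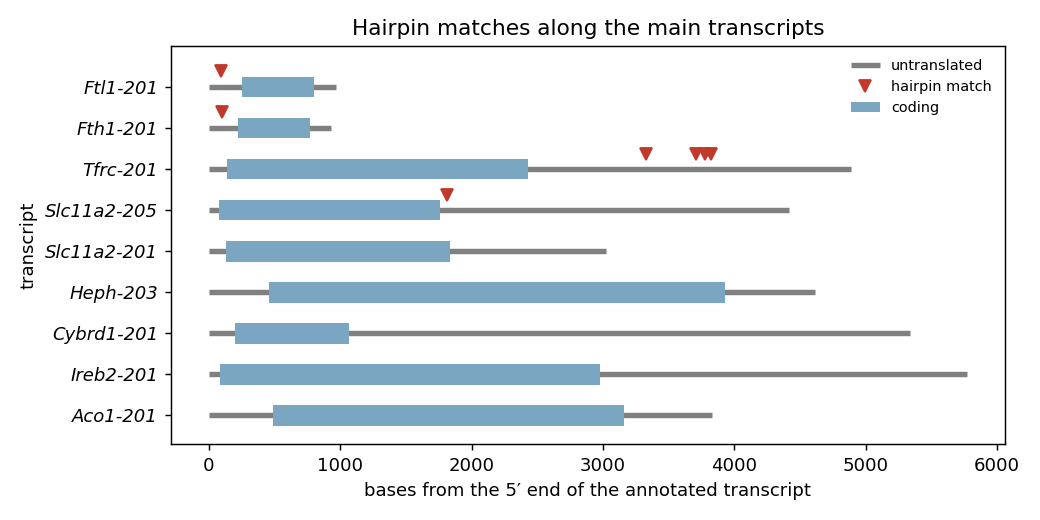
Annotated transcripts from the 5′ end (bases), with coding parts as blue boxes, untranslated parts as grey lines and hairpin matches as red triangles. The ferritin matches lie before the coding part, the 4 Tfrc matches and the Slc11a2-205 match after it, and Slc11a2-201 has none.

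All 8 genes passed a TPM of 1 in both libraries, as did 62.7% of protein-coding genes. A TPM of 10 was passed by 7 of the 8 (40.1% of protein-coding genes), and a TPM of 100 by the ferritin genes alone (7.21%), which also passed 1000 TPM (0.424%). The median over the 8 was 40.7 and 40.3 TPM, beside 17.7 and 17.8 TPM over the protein-coding genes that passed a TPM of 1. Estimated counts behind the levels ran from 712 and 808 for Cybrd1 to 104510 and 113143 for Ftl1. In bulk tissue, fewer cells of a type and less RNA per cell cannot be told apart.

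The storage genes were by far the highest. Ftl1 (ENSMUSG00000050708.10, chromosome 7, 45457944 to 45459884, − strand) had 5033 TPM in replicate 1 and 4683 TPM in replicate 2, a mean of 4858 ± 247 (SD, n = 2), and ranked 6 among protein-coding genes. Fth1 (ENSMUSG00000024661.6, chromosome 19, 9980598 to 9985098, + strand), whose product carries ferritin's ferroxidase centre, had 1678 and 1734 TPM, a mean of 1706 ± 39.2 (SD, n = 2) and rank 35. Both libraries placed the light chain above the heavy chain. Ftl1 over Fth1 was 2.999 in replicate 1 and 2.70 in replicate 2 (mean 2.85 ± 0.210, SD, n = 2). The pair took 0.671% and 0.642% of all TPM, and 0.393% and 0.369% of all estimated counts, and both mRNAs are short, at 866 bases for Fth1 and 968 bases for Ftl1-201 in the files.

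The ferritin levels carry unlike uncertainty about copies. Of the 31-base words in Ftl1 transcripts, 64.1% (891 of 1389) also occur in 33 other genes. For Fth1 the figure was 3.24% (116 of 3578). The words come from all annotated transcripts of a gene, and the only Fth1 transcript with a listed level has 866 bases. The shared part of that transcript was not counted separately and could be higher than 3.24%. The 3 listed genes that share over 20% of Ftl1's words and reached a TPM of 1 were Ftl1-ps1 (54.4% of words, 85.9 and 87.2 TPM), Gm15590 (28.3%, 5.56 and 3.98 TPM) and Ftl2-ps (25.5%, listed at 0 and then 1.05 TPM). Together they came to 1.82% and 1.97% of the Ftl1 TPM, as the authors' counting divided the reads. Another entry, Gm22133, named here after its values were seen, is annotated as a miRNA of 109 bases inside Ftl1 on the same strand (chromosome 7, 45458089 to 45458197), and all its words are in Ftl1. It is listed at 4985 and 3724 TPM, but from 1194 and 1039 estimated counts, which is 1.14% and 0.918% of the Ftl1 counts. Its effective length in the tables is 10 bases, so its TPM is not a level to set beside those of the ferritin genes.

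Of the uptake genes, the transferrin receptor was highest. Tfrc (ENSMUSG00000022797.11, chromosome 16, 32608920 to 32632794, + strand) had 73.1 and 86.0 TPM, a mean of 79.6 ± 9.18 (SD, n = 2) and rank 2035. Replicate 2 was 1.18-fold higher in Tfrc on the TPM + 1 scale, and the deposited credibility intervals (level not stated), 69.2 to 75.7 TPM and 81.7 to 88.7 TPM, do not overlap. Erythroid precursors are rich in this receptor, and 12 of 15 erythroid markers passed a TPM of 1 in both libraries, with a summed level of 21236 and 21045 TPM. The highest was the alpha-globin gene Hba-a2 (9404 and 9344 TPM). Tfr2, a second transferrin receptor gene, was below 1 in both. The erythroid part in the Tfrc level was not tested.

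The genes of dietary uptake were lower. Slc11a2 (ENSMUSG00000023030.12, chromosome 15, 100387898 to 100425072, − strand) had 24.9 and 24.5 TPM, a mean of 24.7 ± 0.226 (SD, n = 2) and rank 5554. Cybrd1 (ENSMUSG00000027015.4, chromosome 2, 71117923 to 71142926, + strand) had 5.67 and 5.53 TPM, a mean of 5.60 ± 0.0990 (SD, n = 2). Cybrd1 was the lowest of the 8 and sat near the middle of all protein-coding genes, at percentile 51.2. Slc11a2 was 4.38 and 4.44 times Cybrd1, and Tfrc was 2.94 and 3.51 times Slc11a2. The ferroxidase gene Heph (ENSMUSG00000031209.10, chromosome X, 96455359 to 96574485, + strand) had 22.2 and 23.3 TPM, a mean of 22.7 ± 0.820 (SD, n = 2), and was 3.91 and 4.22 times Cybrd1. All 10 epithelial markers passed a TPM of 1 in both libraries and summed to 4373 and 4171 TPM, led by the galectin gene Lgals4 (1321 and 1235 TPM).

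Both regulators were detected, with IRP1 above IRP2. Aco1 (ENSMUSG00000028405.9, chromosome 4, 40143081 to 40198338, + strand), whose product is either cytosolic aconitase or IRP1 depending on its iron-sulfur cluster, had 56.5 and 56.0 TPM, a mean of 56.3 ± 0.382 (SD, n = 2). Ireb2 (ENSMUSG00000032293.7, chromosome 9, 54863789 to 54912530, + strand), whose product is degraded when iron is plentiful, had 18.7 and 22.0 TPM, a mean of 20.3 ± 2.30 (SD, n = 2). Aco1 over Ireb2 was 3.02 in replicate 1 and 2.55 in replicate 2 (mean 2.78 ± 0.333, SD, n = 2). Ireb2 was 1.16-fold higher in replicate 2 on the TPM + 1 scale, with credibility intervals of 17.6 to 19.0 and 20.8 to 22.3 TPM.

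**Figure D2:**
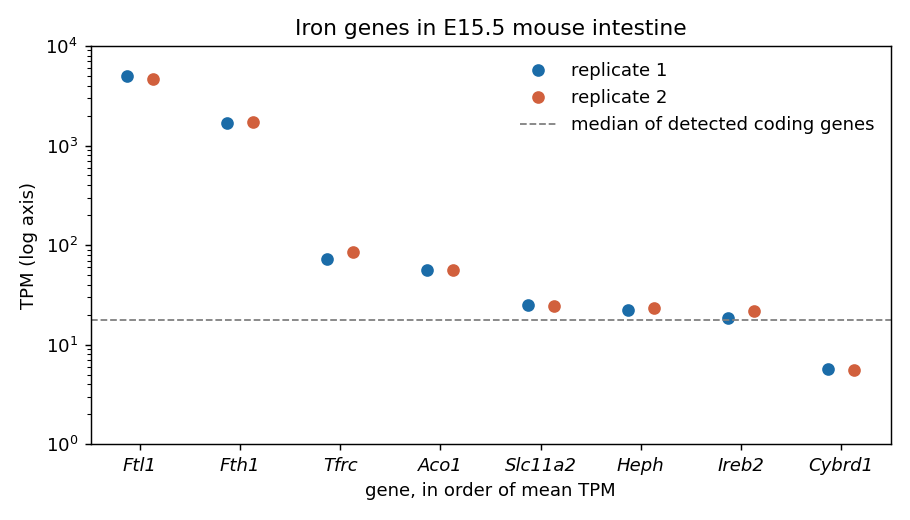
TPM of the 8 genes (log axis) in replicate 1 (blue) and replicate 2 (orange), with the median of protein-coding genes at a TPM of at least 1 as a dashed line. The ferritin genes stand above 1678 TPM, Cybrd1 sits at 5.67 and 5.53 TPM, and the libraries lie close together for every gene.

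From high to low, the order was Ftl1, Fth1, Tfrc, Aco1, Slc11a2, Heph, Ireb2 and Cybrd1 in the deposited gene table for both libraries. In replicate 2 the place of Slc11a2 rests on a transcript with few reads, Slc11a2-204 (3.67 TPM from 30.1 estimated counts). Without it, a choice made after the data were seen, Slc11a2 had 24.9 and 20.9 TPM (mean 22.9 ± 2.82, SD, n = 2), below both Heph and Ireb2 in replicate 2. Heph and Ireb2 were the only neighbours whose gap (2.39 TPM) did not pass their combined SD (2.44 TPM), and their credibility intervals overlap in replicate 2. Slc11a2 and Heph differed by 1.96 TPM, over a combined SD of 0.851, but their intervals overlap in replicate 2 as well, and without Slc11a2-204 the gap was 0.125 TPM, under a combined SD of 2.94. The other neighbours differed by more than the spread between libraries.

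None of the 8 genes passed 1.5-fold between the libraries on the log2(TPM + 1) scale. Of 13474 protein-coding genes with a TPM of at least 1, only 1.35% did. None of the 8 passed 2-fold, beside 0.438%. With background shares this small, none of 8 does not set these genes apart. The differences, replicate 2 over replicate 1, ran over the 8 genes between −0.10 for Ftl1 and 0.23 for Tfrc on that scale, with a median of 0.02, the same as over the protein-coding genes. From estimated counts, which take no account of transcript length, Slc11a2 was the lowest of the 8, at −0.22 under both TMM and DESeq2 scaling, against −0.02 from TPM, and without Slc11a2-204 its TPM gave −0.24. The median absolute difference of the protein-coding genes in TPM was 0.10, and 84.3% and 82.2% of them differed less than Tfrc and Ireb2. The credibility intervals of the libraries overlap for Aco1, Slc11a2, Heph and Cybrd1, and do not for Ftl1, Fth1, Tfrc and Ireb2. Those intervals cover the counting and allocation of reads within a library and not the spread between pools.

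The transcripts of Slc11a2 split into forms with and without the hairpin. Slc11a2-205 (4415 bases), which holds it, and Slc11a2-201 (3025 bases), which ends in another last exon and lacks it, differ in coding length (1683 and 1704 bases) and in 3′UTR (2653 and 1189 bases). Slc11a2-205 had 12.2 and 10.3 TPM, 49.1% and 41.9% of the gene (mean 45.5% ± 5.12, SD, n = 2). Slc11a2-201 had 10.9 and 9.68 TPM, 44.0% and 39.4%. Slc11a2-205 was the leader in both libraries, by 1.12 and 1.06 times, but the credibility intervals of the forms overlap in each library (11.1 to 12.7 against 9.64 to 11.5 TPM in replicate 1, and 9.36 to 10.7 against 8.52 to 10.2 TPM in replicate 2). The forms are well separated by sequence, since 2707 of the 4385 words of Slc11a2-205 and 1257 of the 2935 words of Slc11a2-201 are absent from the other.

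The lower share in replicate 2 goes with 1 short transcript. Slc11a2-204, a predicted target of nonsense-mediated decay of 393 bases, is listed at 0 in replicate 1 and at 14.96% of the gene in replicate 2, from 30.1 estimated counts or 1.46% of the gene's counts. Only 29 of its 363 words are absent from Slc11a2-205. Among protein-coding transcripts alone, the hairpin form held 49.1% and 49.2%. Against Slc11a2-201 alone it held 52.8% and 51.5%, a comparison chosen after the data were seen. By estimated counts, where a longer transcript collects more, it held 1262 of 2047 counts (61.7%, 95% Wilson interval 59.5 to 63.7%) and 1237 of 2065 (59.9%, 57.8 to 62.0%), intervals that cover counting error only.

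Slc11a2 transcripts also differ in where they start, and nearly all of the level was listed on transcripts from 1 start region. Slc11a2-201 and Slc11a2-205 start 53 bases apart, and with Slc11a2-204 they made up 93.1% and 96.3% of the gene. The 3 transcripts that start farther upstream held 3.63% and 3.72%, all of it Slc11a2-207. That transcript begins 1159 bases upstream of Slc11a2-201 and rested on 6.27 and 7.39 estimated counts. These 3 are annotated as short pieces of 387 to 709 bases with no 3′UTR. Reads from the rest of a full-length mRNA starting there could be listed only on transcripts of the other starts. The shares therefore do not measure use of the starts. In the adult, the upstream exon 1A is known from duodenum and kidney; the tables do not use that exon name, and no transcript was assigned to it here.

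**Figure D3:**
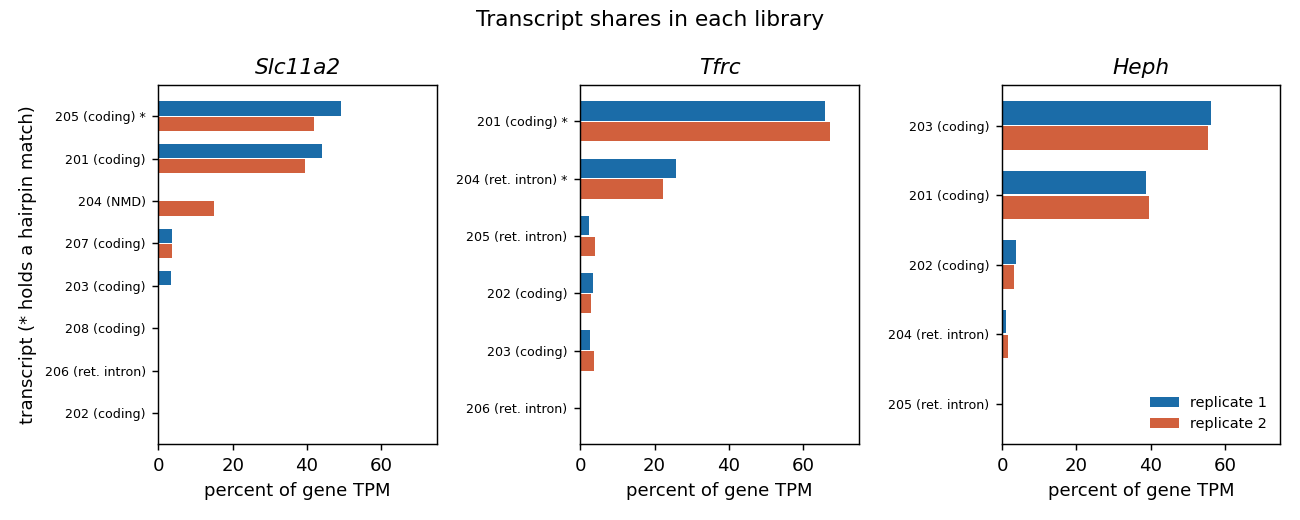
Percent of gene TPM on each annotated transcript of Slc11a2, Tfrc and Heph in replicate 1 (blue) and replicate 2 (orange); an asterisk marks a hairpin match, ret. intron a retained intron and NMD nonsense-mediated decay. Slc11a2-205 and Slc11a2-201 lie close in both libraries, and Slc11a2-204 appears in replicate 2 alone, at 14.96%.

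Tfrc was carried mainly by transcripts with the hairpins. Tfrc-201, the full-length coding form (4890 bases), had 48.1 and 57.8 TPM, 65.8% and 67.2% of the gene. A retained-intron transcript, Tfrc-204 (3527 bases), had 18.8 and 19.1 TPM, 25.7% and 22.3%, and it too holds all 4 matches. Together they made up 91.6% and 89.4% of Tfrc. Of the words of Tfrc-204, 90.7% also occur in Tfrc-201, so its share rests largely on how reads were divided. Tfrc-206 is listed at 0 in both libraries, and each of the other 3 transcripts held at most 3.93%.

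Ftl1 was close to single-form in the tables. Ftl1-201, which has the hairpin, held 98.8% and 98.5% of Ftl1, and the other 4 listed transcripts have no match by identifier in M21. Fth1, Cybrd1 and Ireb2 have 1 listed transcript each, so their shares were fixed by the annotation and say nothing about forms. M21 holds further Fth1 transcripts with the hairpin, which have no listed level. Aco1-201 held 98.8% and 99.3% of Aco1. Heph was split between a pair of coding forms, with Heph-203 at 56.3% and 55.4% and Heph-201 at 38.9% and 39.5%, but 95.1% of the words of Heph-203 are also in Heph-201.

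The same search placed a hairpin in ferroportin, Slc40a1, the exporter that works with HEPH and itself a listed known IRE gene. It lies in the 5′UTR and is shown for comparison with the ferritin sites.
Slc40a1, 5′UTR, chr1:45925464-45925493, − strand: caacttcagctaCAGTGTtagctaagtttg
Slc40a1 had 118 and 126 TPM, above Tfrc in both libraries, and transcripts with the hairpin held 96.6% and 98.1% of it. Of the other ferroxidase genes, ceruloplasmin (Cp) had 1.23 and 0.91 TPM and Hephl1 was listed at 0 in both, so Heph was the highest of the multicopper ferroxidases measured.

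Other iron and heme genes were taken from 9 lists with 76 genes. A TPM of 1 was passed in both libraries by 67 of them (88.2%, beside 62.7% of protein-coding genes), and their median was 28.7 and 28.0 TPM. In iron uptake and transport 15 of 17 passed. Snx3, which sorts the transferrin receptor back to the surface, had 365 and 373 TPM, transferrin itself (Trf) 236 and 160 TPM, and the endolysosomal channel gene Mcoln1 53.0 and 44.7 TPM. The ferritin receptor gene Scara5 (0.93 and 0.68 TPM) and Tfr2 (0.80 and 0.60 TPM) did not pass.

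In ferritin handling 5 of 6 passed. The iron chaperone genes Pcbp1 (422 and 470 TPM), Pcbp2 (57.1 and 60.2 TPM) and Pcbp3 (36.8 and 36.6 TPM) were detected, as was Ncoa4, the receptor for ferritin breakdown in lysosomes (131 and 130 TPM). Mitochondrial ferritin, Ftmt, was listed at 0 in both libraries. All 5 genes listed for ubiquitin ligases around the iron regulatory proteins passed. Skp1 had 597 and 710 TPM, Rbx1 181 and 187 TPM, Cul1 82.4 and 91.9 TPM, and the iron-sensing F-box gene Fbxl5, which targets IRP2, 47.5 and 52.1 TPM. Herc2 was the lowest, at 4.67 and 3.98 TPM.

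Hepcidin, the liver hormone that has ferroportin degraded, was below a TPM of 1. Hamp had 0.14 and 0.37 TPM and Hamp2 0.25 TPM and then 0, and 5 of 9 genes of the hepcidin axis passed. The highest were the neogenin gene Neo1 (14.5 and 15.8 TPM), Bmp2 (11.5 and 13.8 TPM) and the hemochromatosis gene Hfe (8.54 and 8.33 TPM).

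**Figure D4:**
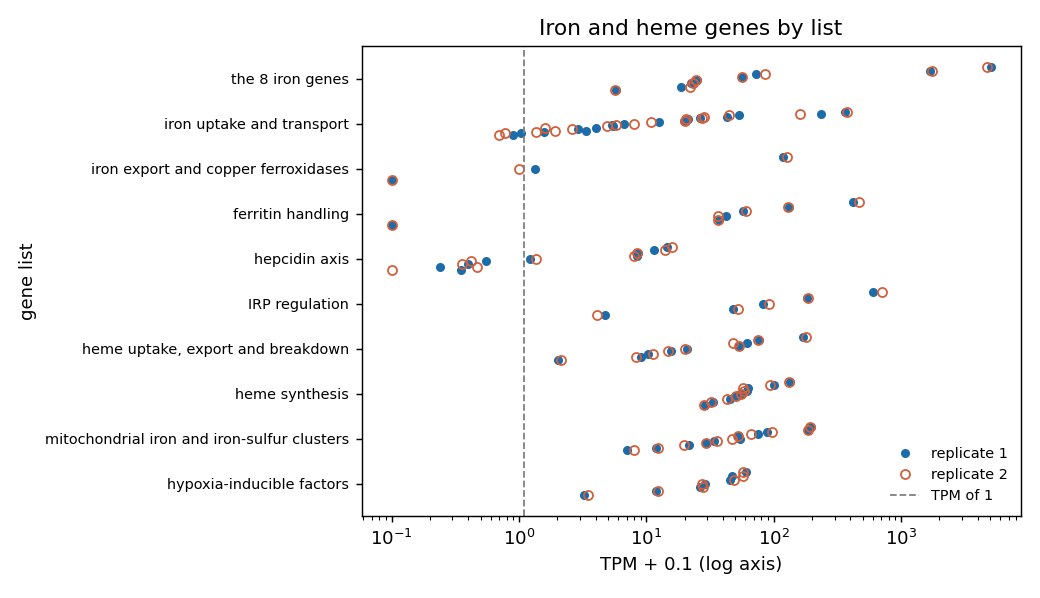
TPM + 0.1 (log axis) of the 8 genes and of the 9 other lists, 1 point per gene and library, with replicate 1 filled and replicate 2 open and a dashed line at a TPM of 1. The ferritin genes lie to the right of every other listed gene, and some genes of iron uptake, the ferroxidases, ferritin handling and the hepcidin axis lie below the line.

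Of the 67 detected genes, 3 passed 1.5-fold between the libraries (4.48%, beside 1.35% of protein-coding genes), all in iron uptake and transport and all lower in replicate 2. The iron-binding protein gene Meltf (melanotransferrin) had 42.9 and 28.1 TPM, lipocalin 2 (Lcn2) 3.90 and 1.49 TPM and lactotransferrin (Ltf) 3.25 and 1.82 TPM. Markers of neighbouring organs moved the same way. The 7 pancreas markers, 6 of them detected, summed to 5383 and 1876 TPM, led by Ctrb1 (2585 and 950 TPM) with Pnlip below 1. Part of that sum is Amy2a5 (1641 and 546 TPM), whose level is uncertain. Its credibility intervals ran from 245 to 3137 TPM in replicate 1 and from 44.6 to 1039 TPM in replicate 2. The 9 liver markers, 8 of them detected, summed to 518 and 372 TPM, led by Afp (190.0 and 143 TPM) with Tat at 0. Only 2 of the 9 passed 1.5-fold, against 6 of the 7 pancreas markers, and Serpina1a was nearly level (27.5 and 26.2 TPM). The part of neighbouring organs in the differences of Meltf, Lcn2, Ltf and Trf was not tested. The other lists were steadier. The 10 macrophage markers, all detected, summed to 291 and 273 TPM (C1qb 57.2 and 56.3), and the 10 mesenchyme and muscle markers, all detected, to 6787 and 7139 TPM (Col3a1 1317 and 1483).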

How the data were processed

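Total RNA libraries were prepared from RNA extracted with mirVana, fragments over 200 nucleotides and added spike-ins, per the labels' protocols, which also cite a SMARTer ultra-low kit manual. Aligner, quantifier, strand setting and rRNA treatment: not given in the sources used here. Reads of overlapping genes may not be told apart. The deposited readme names mm10 and annotation M4. The tables hold, per the file headers, expected counts (estimated by the authors and not always whole), TPM and FPKM made by the authors over all entries, spike-ins (2.16% and 1.76% of counts) included, and the percent of each gene's TPM per transcript. The deposited credibility bounds of TPM were treated as a score with no stated level; they sit around the authors' posterior mean TPM, so a TPM can lie outside them.

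Symbols, types, positions and sequences were taken from GENCODE M21 (GRCm38, equal to mm10) by unversioned Ensembl identifier; 42462 of 43346 genes matched. Fth1-201 and Ireb2-201 have other lengths in M21 (929 and 5770 bases) than in the files (866 and 5808). Skp1 is Skp1a in M21. Detection meant a TPM of 1 or more in each library. Differences are log2((TPM of replicate 2 + 1)/(TPM of replicate 1 + 1)), which understates low genes. Alternatives used rounded expected counts with edgeR 4.0.16 and DESeq2 1.42.0 in R 4.3.3 for scaling only, and Python 3.11.15 for the rest; the scripts were tested on simulated data. Copies were counted as shared 31-base words on either strand. The replicates are the labels' biological replicates 1 and 2; with 1 group there was no test.

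Named are the 8 genes, the 3 highest and 2 lowest members of each other list, members past 1.5-fold with a mean TPM of at least 1, the highest marker and markers below 1, and copies sharing over 20% of words; some genes that this rule names are left out of the text. The genes and lists were chosen with earlier results of these data known.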

Additional observations from a re-analysis of the deposited data

How the results depend on the processing

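The detected genes among the 8 stayed at 8 at 5 TPM, by posterior mean TPM, rescaled FPKM and TPM over mouse genes alone. A limit of 0.5 TPM or leaving out either replicate also gave 8, but neither could have lowered that count. The count past 1.5-fold stayed at 0 under a pseudocount of 0.1, TMM and DESeq2 size factors. A limit of 2-fold also gave 0 and could not have given more. The 67 other iron genes detected became 70 at 0.5 TPM and 58 at 5 TPM, and 67 to 68 with a replicate left out. Leaving out a replicate gave 2.70 to 2.999 for Ftl1 over Fth1 and 2.55 to 3.02 for Aco1 over Ireb2. Adding the copies moved Ftl1 over Fth1 to 2.90. The mean Slc11a2 share with the hairpin, 45.5%, was 41.9 to 49.1% with a replicate left out, 42.7% by posterior means and 49.2% among coding transcripts; it moved beyond its spread to 60.8% by estimated counts, where transcript length counts, and to 52.1% among the full-length forms alone, a choice made after the data were seen. No result reversed. Of the values for single genes, transcripts and backgrounds, 83 stayed within their spread or on their side of 1.5-fold and 12 moved beyond it. Without Slc11a2-204, also chosen after the data were seen, the mean Slc11a2 level was 22.9 TPM, against 24.7. Looser hairpin rules left that share at 45.5%, and with 4 of 5 upper pairs a site appeared in the Heph coding sequence. Of protein-coding genes, 2.27% passed 1.5-fold with a pseudocount of 0.1, against 1.35%. TPM over mouse genes alone raised the levels a little (Cybrd1 5.85, Slc11a2 25.8, Heph 23.7, Aco1 58.7 and Fth1 1780 TPM). No paired analysis was possible because the 2 libraries form 1 group. With n = 2 an SD is a rough guide, and transcripts resting on under 50 estimated counts, such as Slc11a2-204 and Slc11a2-207, have shares set by few reads.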

Other observations

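Heme and mitochondrial iron genes were detected throughout. All 9 genes of heme synthesis passed a TPM of 1 in both libraries, with a list median of 56.0 and 55.4 TPM. Alad, for the enzyme that makes porphobilinogen, was highest (134 and 131 TPM). Urod had 62.5 and 57.4 TPM, and Ppox (33.4 and 31.8 TPM) and Uros (28.8 and 28.2 TPM) were lowest. All 9 genes of heme uptake, export and breakdown passed. The heme-binding protein gene Pgrmc1 had 169 and 180 TPM, the constitutive heme oxygenase gene Hmox2 75.9 and 75.1 TPM and the biliverdin reductase gene Blvrb 62.1 and 48.0 TPM, while the heme exporter Flvcr1 had 8.93 and 8.27 TPM and Flvcr2 1.94 and 2.02 TPM. All 11 genes of mitochondrial iron and iron-sulfur clusters passed. Glrx5 had 187 and 186 TPM, the scaffold gene Iscu 88.5 and 96.3 TPM and the iron importer Slc25a28 11.7 and 12.2 TPM.

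All 7 genes of the hypoxia-inducible factor list passed. The prolyl hydroxylase gene Egln2 had 60.6 and 57.1 TPM, Hif1a 46.8 and 57.7 TPM, Egln3 45.0 and 48.5 TPM and Egln1 11.9 and 12.3 TPM. Epas1, for HIF-2 alpha, which drives Slc11a2 and Cybrd1 in the adult gut of iron-deficient mice, was lowest at 3.15 and 3.40 TPM. The hairpin search also matched the 5′UTR of Epas1 and of the erythroid heme synthesis gene Alas2, both listed as known IRE genes. Transcripts with a match held 92.4% and 93.4% of Alas2 and all of Epas1, which has only 1 listed transcript. Cdc14a and Cdc42bpa, listed because their human counterparts are known for a 3′UTR element, had no match under the same search.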
